A study of Mus musculus with 7 samples.

Results

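The genes described here are 10 transcriptional regulators of cardiac progenitors, *Isl1*, *Nkx2-5*, *Mef2c*, *Hand1*, *Hand2*, *Osr1*, *Osr2*, *Smarcd3*, *Nr2f1* and *Nr2f2*. They were followed in the posterior second heart field (pSHF) of *Shh* mutant and wild-type mouse embryos. Every non-control probe that carried one of these names was taken, which gave 15 of the 41174 probes and 10 of the 21475 named genes on the array. A probe entered the test if all arrays of 1 genotype or the other read it well above background, and 13 of the 15 probes, for 9 of the 10 genes, met this among 23129 tested probes. Where a gene had several probes, the brightest one stands for it.

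RNA from microdissected pSHF of E9.5 embryos was pooled by genotype, and 1 pool was hybridized to each of 7 single-colour Agilent arrays. The groups were 4 pools of *Shh* -/- embryos and 3 pools of +/+ embryos, all on a mixed background given as C56B/6 and CD-1, from superovulated *Shh* +/- females mated to *Shh* +/- males. Heart and neural tube had been cut away, so the tissue was ventral mesenchyme with its dorsal protrusion, and foregut came along with it. The mutation was carried by all cells of the mutant embryos, not by 1 tissue, and the number of embryos in a pool was not given in the sources used here.

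The second heart field is a population of splanchnic mesoderm behind the forming heart tube that feeds cells into its arterial and venous poles. Its posterior part supplies the atria, the dorsal mesenchymal protrusion and the atrial septum, and it lies next to the foregut endoderm, which secretes the Hedgehog ligand Shh. *Isl1* encodes a LIM-homeodomain factor that marks these progenitors before they differentiate, and *Nkx2-5*, *Mef2c*, *Hand1*, *Hand2* and *Smarcd3* encode regulators used as progenitors turn into heart muscle. *Osr1* and *Osr2* encode zinc finger factors of the mesoderm, and *Nr2f1* and *Nr2f2* encode the orphan nuclear receptors COUP-TFI and COUP-TFII, of which the latter is known for its role in the atria.

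Array facts that bear on these values are few. Pools 1, 3 and 4 of each genotype were hybridized as pairs, 1 slide per number, and the mutant pool took the first position each time, so that array position cannot be told apart from genotype. The array of mutant pool 2 had no partner on its slide, and its label records a possible leak. From 60.0 to 70.6% of probes were well above background on an array, and no spot was saturated. The targeted gene was lower in the mutants but was well above background in all 4 of their pools. Normalized log2 signals of *Shh* were 9.64, 9.37, 9.19 and 9.29 in mutant pools 1, 2, 3 and 4 against 10.69, 10.70 and 9.95 in wild-type pools 1, 3 and 4, with no overlap (log2 change −1.08, limma's adjusted p = 0.0657). Whether that probe lies in the deleted part of the gene is not given in the sources used here.

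No progenitor factor passed the test between genotypes. The lowest values relative to wild type were those of *Osr1*, at 54.4% of the wild-type signal, and *Isl1*, at 74.5%, and in both genes the highest mutant pool was below the lowest wild-type pool. *Hand1* and *Hand2* had higher means in the mutants, with 95% intervals that included 0. The intervals of *Nkx2-5*, *Mef2c*, *Smarcd3* and *Nr2f2* also included 0, and these and that of *Hand2* lay within 2-fold either way. *Nr2f1* could not be placed, since 1 mutant pool set its value. *Osr2* was at background. The plot of each gene in every pool shows these patterns.

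**Figure D1:**
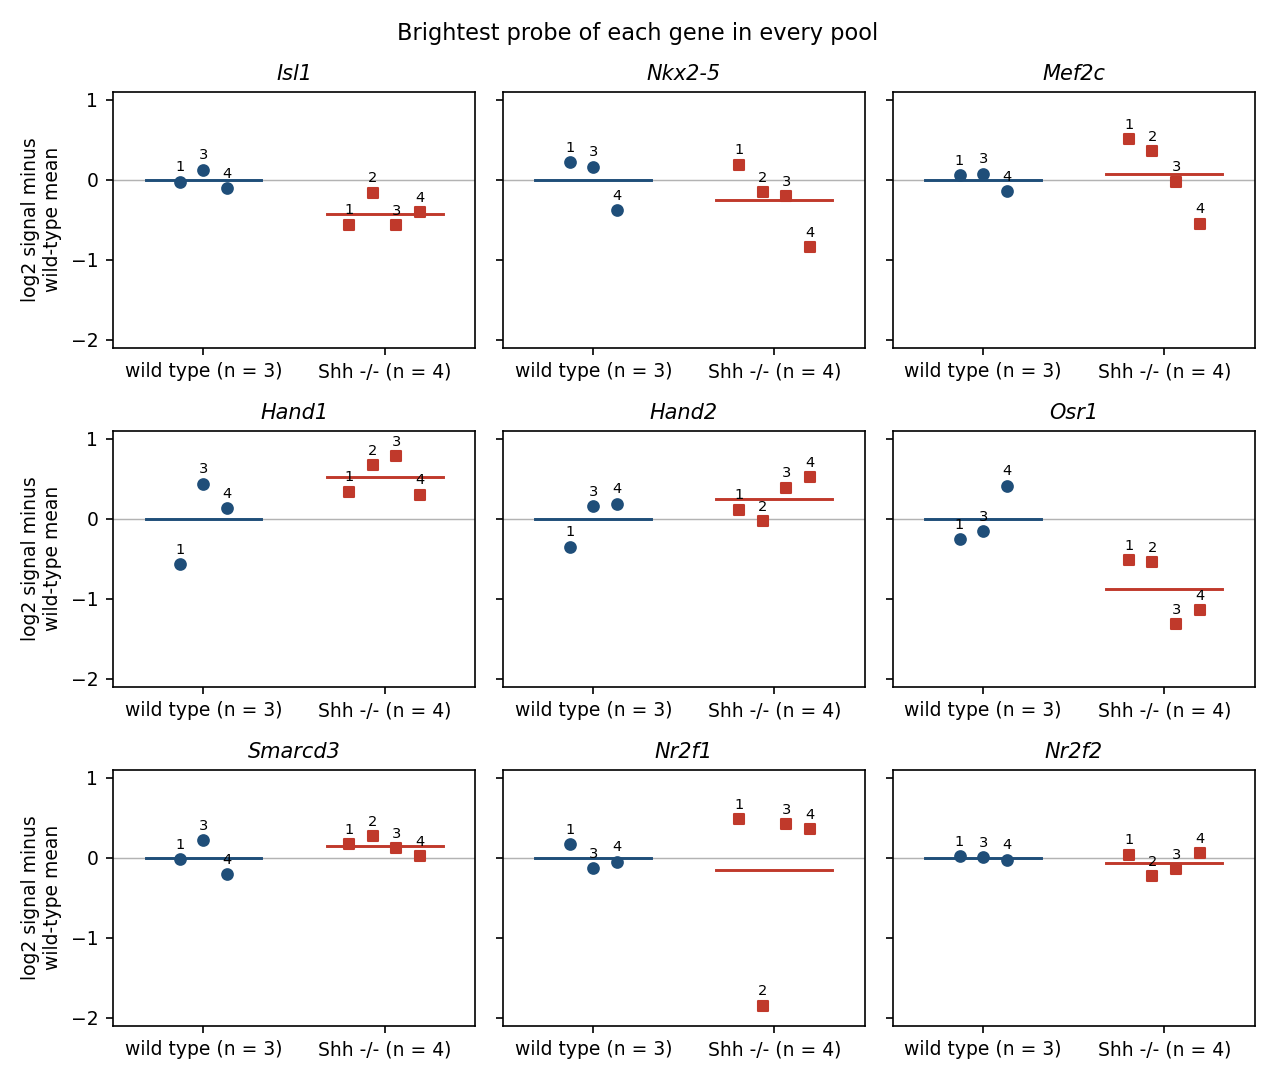
Normalized log2 signal of the brightest probe of 9 genes in each pool, minus the gene's wild-type mean, with wild-type pools as circles and *Shh* -/- pools as squares, numbered by pool, and horizontal bars for group means. All 4 mutant pools of *Osr1* and *Isl1* lie below the wild-type pools, and mutant pool 2 stands alone in *Nr2f1*.

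Counted over the 9 brightest probes, 5 changes were negative and 4 positive, and limma called 0 at an adjusted p under 0.05, against 0.549% of all tested probes (127, of which 67 were lower in the mutants). With the cut-offs of 0.005 and 2-fold applied to limma's adjusted p over all tested probes, none of the 9 and 0.0216% of probes passed. The study set the same cut-offs on SAM q-values over a filtered set of probes, a different test. With slide as a block the number over all probes was 11 when slide was fixed and 183 when it was random, and that of progenitor factors was 0 in each. The lowest adjusted p at any of the 13 probes was 0.110. Without adjustment 2 genes had a p under 0.05, *Osr1* and *Isl1*, where 7.96% of all tested probes passed, and SAM, the significance analysis of microarrays used by the study, called 0 of the 9. The groups did not overlap for 2 genes, both lower in the mutants. Of all probes with a value on every array, 8.35% had no overlap in either direction. With the mutants lower the share was 3.55%. The median change of the 9 genes was −0.07, against 0.019 over all tested probes. In bulk tissue, fewer cells that express a gene and less RNA per cell cannot be told apart. The pools are separate pools of embryos, their number limits the precision, and an exact test of 4 against 3 pools cannot give a p below 0.0286.

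**Figure D2:**
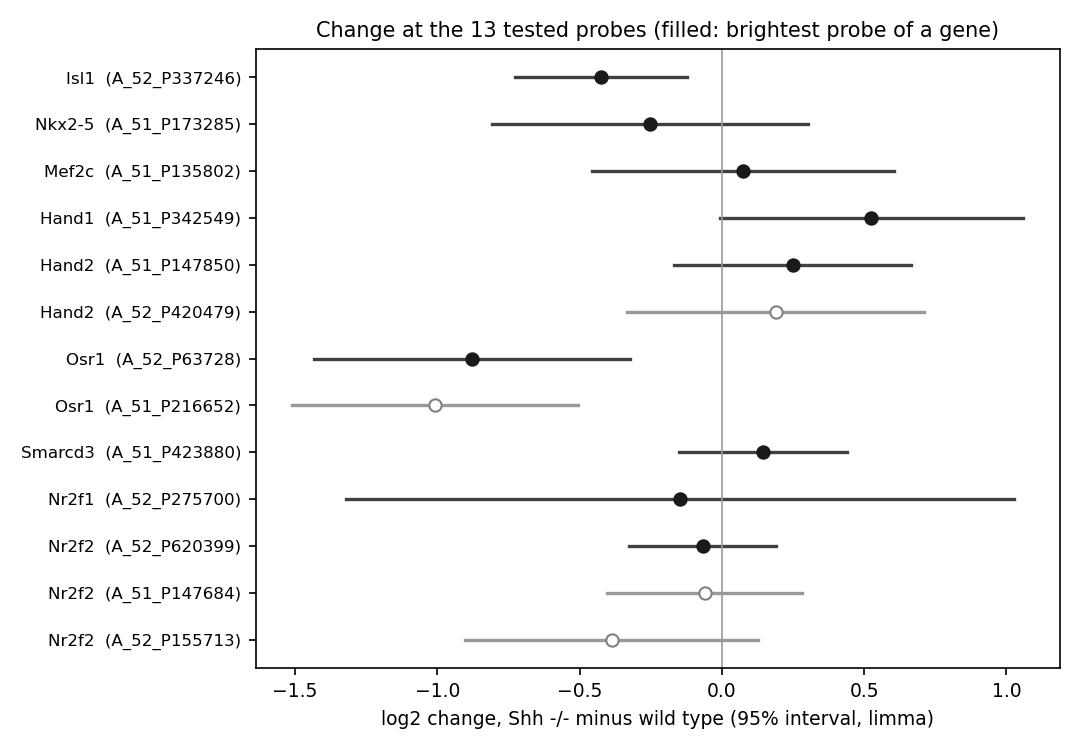
Log2 change, *Shh* -/- minus wild type, with limma's 95% interval at the 13 tested probes, filled for the brightest probe of each gene and open for further probes. Only the intervals of *Isl1* and of both *Osr1* probes exclude 0.

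The largest difference was at *Osr1*, a zinc finger factor expressed in the lateral plate and intermediate mesoderm and known to be needed for atrial septum formation. Its 2 probes do not overlap and lie 374 bases apart on chromosome 12 (mm9, plus strand), from 9586475 to 9586534 for the brighter A_52_P63728 and from 9586041 to 9586100 for A_51_P216652. The probe of its paralogue *Osr2* (A_51_P499599, chromosome 15, plus strand) covers 1016 bases of the genome from 35230691 to 35231706, 956 more than its 60 bases, and so reads a spliced transcript. These 3 sequences are printed because the *Osr1* result rests on a pair of separate stretches of the transcript, and because the *Osr2* probe is the one that was not detected. No base is marked, and annotation of exons and untranslated regions on mm9 was not used here.
Osr1 A_52_P63728: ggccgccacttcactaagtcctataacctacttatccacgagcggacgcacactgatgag
Osr1 A_51_P216652: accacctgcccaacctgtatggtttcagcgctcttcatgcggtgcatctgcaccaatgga
Osr2 A_51_P499599: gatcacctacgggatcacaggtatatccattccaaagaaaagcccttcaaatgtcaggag

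At A_52_P63728, *Osr1* log2 signals were 11.05, 11.02, 10.24 and 10.42 in mutant pools 1 to 4 and 11.31, 11.41 and 11.98 in wild-type pools 1, 3 and 4. The 4 mutant pools thus fell into a pair near the wild-type range, pools 1 and 2, and a pair well below it, pools 3 and 4, with a gap of 0.26 between the highest mutant and the lowest wild-type pool. The mean change was −0.88 (standard error 0.24, 95% interval −1.43 to −0.32, limma's adjusted p = 0.233), and the mutant signal was 54.4% of wild type with an interval of 37.0 to 79.9%. No other split of the pools gave a difference as large in an exact permutation test (two-sided, p = 0.0286, not adjusted for the 9 genes examined).

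At A_51_P216652 the same order of pools was seen. Mutant pools 1 to 4 were at 9.43, 9.30, 8.86 and 9.03, and wild-type pools 1, 3 and 4 at 9.78, 10.06 and 10.66. The change there was −1.01 (standard error 0.22, 95% interval −1.51 to −0.51, limma's adjusted p = 0.110), the lowest adjusted p among the progenitor factor probes. Within slides the size varied. The mutant pool was lower than its slide partner by −0.26 on the slide of pools 1, −1.16 on that of pools 3 and −1.56 on that of pools 4 at the brighter probe, and by −0.34, −1.20 and −1.63 at the other. With slide as a fixed block the change of the brighter probe was −0.99 (adjusted p = 0.207). *Osr1* belongs to the gene signature that the study selected on these same pools, so its direction here is not independent evidence.

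*Osr1* also marks intermediate mesoderm, so the other markers of that tissue were read beside it. Of 8 listed markers 6 were tested, 4 with negative and 2 with positive changes, none called. *Pax2*, with a negative change, entered the test through the wild-type pools alone. The summed signal of the 6 was 4115 to 4957 in the mutant pools and 3335 to 4147 in the wild-type pools. Most of it came from *Wt1* (0.83) and *Gata3* (−0.30), which differed in direction. *Pax8* and *Ret* were at background in all pools. *Wt1*, a gene of the coelomic lining and nephric mesenchyme, was highest in this list at 0.83 (limma's adjusted p = 0.0598), and *Wnt9b* was at −0.30 (limma's adjusted p = 0.762). Their part in the *Osr1* difference was not tested.

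Among 14833 other genes with a value on every array, the 5 whose brightest probe ran closest to *Osr1* over the 7 pools were *Nkx6-1*, *Tmem132e*, *Rassf4*, *Nkx2-1* and *Wnt5a*. Closeness was measured as the root mean square difference of log2 signals, each centred on its mean over the pools, and ran from 0.21 for *Nkx6-1* to 0.25 for *Wnt5a*. *Nkx6-1* was at 11.58, 11.31, 10.90 and 11.22 in mutant pools 1 to 4 and at 12.10, 11.98 and 12.22 in the wild-type pools. These 5 genes had changes between −0.88 and −0.69, and none was called. They were picked for their likeness to *Osr1* over these same 7 pools, so changes near its own follow from the choice.

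*Osr2* was well above background in wild-type pool 4 alone, so it was not tested. Its mean spot signals were 34.0 to 43.1 intensity units over the 7 arrays, where the median local background was 21 to 25 units and the median spot signal 86.4 to 145.3. Mutant pools were at 34.0 to 43.1 units and wild-type pools at 36.0 to 42.1. The comparison of *Osr1* with *Osr2* could therefore not be made.

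*Isl1* showed the other difference without overlap. It was read by A_52_P337246 on chromosome 13 (mm9, 117088774 to 117088833, minus strand), which the array carries in 10 spots. Log2 signals were 11.68, 12.08, 11.68 and 11.84 in mutant pools 1 to 4 and 12.22, 12.37 and 12.14 in wild-type pools 1, 3 and 4. Mutant pool 2, the pool with the possible leak, came within 0.057 of wild-type pool 4, and the other mutant pools lay further down. The change was −0.42 (standard error 0.13, 95% interval −0.73 to −0.12, limma's adjusted p = 0.322), a signal of 74.5% of wild type with an interval of 60.4 to 91.9%. The exact permutation p was 0.0571 (two-sided, not adjusted).

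The repeated spots show the spread within a single array. Each pool was read on 1 array, so the spread between pools also holds differences between arrays. Within an array the SD between the 10 *Isl1* spots was 0.025 to 0.11 on the log2 scale, the largest in mutant pool 4. That array had 1 outlier spot, which counts in this SD but was left out of the probe's mean. Between pools of a genotype the SD was 0.19 (n = 4) for mutants and 0.12 (n = 3) for wild type, so the spread between pools exceeded the spread between spots on every array. The same-slide differences were −0.54, −0.69 and −0.30 on the slides of pools 1, 3 and 4. Array weights, which gave wild-type pool 3 a weight of 5.90, were the sole alternative that called *Isl1* (−0.55, adjusted p = 0.0387), and over all its alternatives the adjusted p ran from 0.0387 to 1.00.

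*Isl1* is also a motor neuron and sensory neuron gene, and its paralogue *Isl2*, a motor neuron gene, was at −0.44 (limma's adjusted p = 0.316). Of 13 neuronal markers 11 were tested, 9 with negative changes, none called. For 5 of the 11 only the wild-type pools were all well above background, so their direction was in part set by the filter. The summed signal of the 11 was 3475 to 4952 in the mutants and 4085 to 5115 in wild type. *Chat* was well above background on no array of either group, and *Lhx3* was not tested. *Isl1* is expressed in pharyngeal endoderm as well, and 7 of 9 foregut markers had negative changes, none called. The largest was that of *Nkx2-1* (−0.88, limma's adjusted p = 0.0520). Summed signals of the 9 were 117572 to 141086 in the mutants and 109445 to 127560 in wild type. Most of that sum came from *Krt18* (0.13) and *Krt8* (0.39), the 2 markers with positive changes. The part of the neuronal and foregut markers in the *Isl1* difference was not tested.

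*Nkx2-5*, the homeodomain factor of early heart muscle, and *Mef2c*, a MADS box factor that activates muscle genes, differed between genotypes by less than the spread between pools. *Nkx2-5* (A_51_P173285, chromosome 17, 26975621 to 26975680, minus strand) was at 11.84, 11.49, 11.44 and 10.81 in mutant pools 1 to 4 and at 11.87, 11.81 and 11.27 in the wild-type pools. Pools 4 were lowest in both genotypes, and mutant and wild-type pools 1 were nearly level, so the groups overlapped throughout. The change was −0.25 (95% interval −0.81 to 0.30, limma's adjusted p = 1.00). It was negative on the 3 shared slides, from −0.028 to −0.46, but rested on few pools, at −0.058 without mutant pool 4, −0.15 without wild-type pool 1 and −0.44 without wild-type pool 4.

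*Mef2c* was read by A_51_P135802 (chromosome 13, 83802754 to 83802813, plus strand) at 11.82, 11.66, 11.28 and 10.76 in mutant pools 1 to 4. Wild-type pools 1, 3 and 4 were at 11.36, 11.38 and 11.17, inside the range of the mutants. The change was 0.07 (95% interval −0.46 to 0.61), and its sign turned without mutant pool 1 (−0.071) or mutant pool 2 (−0.020). Slide as a fixed block gave the same −0.020, since mutant pool 2 had no partner on its slide and adds nothing to that estimate. A further probe, A_52_P282110 (83717123 to 83717182), 85571 bases away and drawn from a cDNA clone, was well above background on no array and gives no value. Slide differences ran from 0.45 on the slide of pools 1 to −0.41 on that of pools 4.

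The pools that were low in these genes were also low in heart muscle transcripts. The summed signal of 16 cardiomyocyte markers, all tested, was 286868 to 456077 in the mutant pools and 235542 to 367121 in the wild-type pools, with pool 4 lowest in each genotype. Of the 16, 15 had positive changes and none was called. *Sln*, an atrial calcium pump regulator, was at −1.51 (limma's adjusted p = 0.222) and *Myl2*, a ventricular myosin light chain, at 1.24 (limma's adjusted p = 0.668). The heart was outside the dissection, yet these markers were detected in every pool. Their part in the values of *Nkx2-5*, *Mef2c*, the *Hand* genes and *Smarcd3* was not tested.

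*Hand1* and *Hand2*, basic helix-loop-helix factors of the lateral mesoderm and the heart chambers, had higher means in the mutants at all 3 probes. *Hand1* (A_51_P342549, chromosome 11, 57642342 to 57642401, minus strand) was at 9.51, 9.84, 9.96 and 9.48 in mutant pools 1 to 4 and at 8.60, 9.61 and 9.30 in the wild-type pools. Wild-type pool 1 was the low one, and wild-type pool 3 lay above mutant pools 1 and 4. The change was 0.53 (standard error 0.24, 95% interval −0.0079 to 1.06, limma's adjusted p = 0.645), and it was 0.24 without wild-type pool 1.

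*Hand2* was read by A_51_P147850 (chromosome 8, 59801251 to 59802610, plus strand) and A_52_P420479 (59801214 to 59802573). Each covers 1360 genome bases with its 60 bases, 1300 more than the probe length, so both read the spliced transcript across the same gap. They share 23 bases, in capitals in the sequences below, which are printed to show that the *Hand2* readings are not independent.
Hand2 A_51_P147850: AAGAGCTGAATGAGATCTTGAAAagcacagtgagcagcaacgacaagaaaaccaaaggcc
Hand2 A_52_P420479: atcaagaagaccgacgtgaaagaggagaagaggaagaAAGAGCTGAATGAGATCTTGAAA

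At the brighter probe *Hand2* was at 8.76, 8.62, 9.04 and 9.17 in mutant pools 1 to 4 and at 8.30, 8.81 and 8.84 in wild-type pools 1, 3 and 4. Mutant pools 3 and 4 were above all wild-type pools and mutant pools 1 and 2 among them. The change was 0.25 (95% interval −0.17 to 0.67, limma's adjusted p = 1.00), and at the other probe 0.19 (95% interval −0.33 to 0.71). Without wild-type pool 1 the brighter probe was at 0.074. On the 3 shared slides *Hand1* was higher in the mutant pool by 0.91, 0.35 and 0.17, and *Hand2* by 0.47, 0.23 and 0.33. Higher values on all 3 slides were found at 16.1% of all probes, so such a pattern is common on these arrays.

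Whether the *Hand* genes differed in their response was tested on the difference of their log2 signals within each array. That difference was 0.28 higher in the mutants, with an SD of 0.39 between mutant pools (n = 4) and 0.25 between wild-type pools (n = 3), and it was not past the threshold (exact permutation test, two-sided, p = 0.343, 0.686 after Benjamini-Hochberg adjustment over the 2 pairs that could be tested). It was 0.13 without mutant pool 2, 0.17 without wild-type pool 1 and 0.44 without mutant pool 4.

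*Smarcd3* encodes BAF60c, a subunit of the BAF chromatin remodelling complex that is enriched in heart progenitors. Its probe A_51_P423880 (chromosome 5, 24098592 to 24098863, minus strand) covers 272 genome bases and so also reads a spliced transcript. Log2 signals were 12.49, 12.58, 12.44 and 12.34 in mutant pools 1 to 4 and 12.29, 12.54 and 12.11 in the wild-type pools. Wild-type pool 3 was above mutant pools 1, 3 and 4. The change of 0.15 had a 95% interval from −0.15 to 0.44 (limma's adjusted p = 1.00), and was 0.045 without wild-type pool 4, 0.26 without wild-type pool 3 and −0.0048 with array weights. Of 11 other BAF subunits, 4 had negative and 7 positive changes, none called, with a median of 0.04. *Smarce1*, a DNA-binding subunit, was at −0.22 and *Smarcd1*, the *Smarcd3* paralogue BAF60a, at −0.15, the 2 largest changes of that list.

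*Nr2f2*, which encodes COUP-TFII, an atrial and venous identity factor, was among the steadiest of the 9 genes. At A_52_P620399 (chromosome 7, 77498375 to 77498434, minus strand) it was at 14.54, 14.27, 14.36 and 14.56 in mutant pools 1 to 4 and at 14.52, 14.51 and 14.48 in the wild-type pools. Mutant pools lay on either side of the wild-type pools, which differed from each other by an SD of 0.021 (n = 3). The change was −0.07 (95% interval −0.33 to 0.19, limma's adjusted p = 1.00), so a change of 2-fold is outside the interval, and its sign was positive (0.21) in the authors' values once every array had been shifted to 1 median.

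The 3 *Nr2f2* probes did not give 1 value. A_51_P147684, 1012 bases from the first at 77499447 to 77499506, gave −0.06 (95% interval −0.41 to 0.28). A_52_P155713 lies 11118 bases further along, at 77510625 to 77510684, and was designed on a cDNA clone from whole embryos. It was at 9.46, 10.39, 9.79 and 9.40 in mutant pools 1 to 4 and at 10.04, 10.14 and 10.27 in wild-type pools 1, 3 and 4. Here mutant pools 1, 3 and 4 were below all wild-type pools and mutant pool 2 above them, for a change of −0.39 (95% interval −0.90 to 0.13, limma's adjusted p = 0.870). The mutant pool was lower on the 3 shared slides, by −0.58, −0.35 and −0.87. This probe stands in the study's signature, chosen on these pools, and whether it reads the same transcript as the others was not tested.

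*Nr2f1*, encoding COUP-TFI, had the widest spread. At A_52_P275700 (chromosome 13, 78328489 to 78328548, minus strand) log2 signals were 7.94, 5.60, 7.87 and 7.81 in mutant pools 1 to 4 and 7.62, 7.32 and 7.40 in the wild-type pools. Mutant pool 2 differed by −2.27 from the mean of the other mutant pools, which all lay above the wild-type pools. The change over all pools was −0.15 (95% interval −1.32 to 1.03, limma's adjusted p = 1.00). Without mutant pool 2 it was 0.42 (adjusted p = 0.349). Slide as a fixed block gave the same 0.42 (adjusted p = 0.324), because mutant pool 2 had no slide partner and adds nothing to that estimate. Neither direction was called.

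Mutant pool 2 is the array with the possible leak, and the *Nr2f1* probe is poor in G and C, with 13 of 60 bases (21.7%, against a median of 41.7% over tested probes). At the 39 tested probes with no more G and C than this, mutant pool 2 differed from the other mutant pools by a median of −0.60, against −0.02 over all tested probes, and *Nr2f1* was the lowest of the 39. At the 420 tested probes of up to 30% G and C the median in the same comparison was −0.24. The brightest *Nr2f2* probe holds 30%, and mutant pool 2 was the lowest pool there. Without it the *Nr2f2* change was −0.014. The part of the array in the *Nr2f1* and *Nr2f2* values was not tested further. The difference between *Nr2f1* and *Nr2f2* within arrays was −0.08 between genotypes (exact permutation test, two-sided, p = 1.00), and 0.44 without mutant pool 2.

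**Figure D3:**
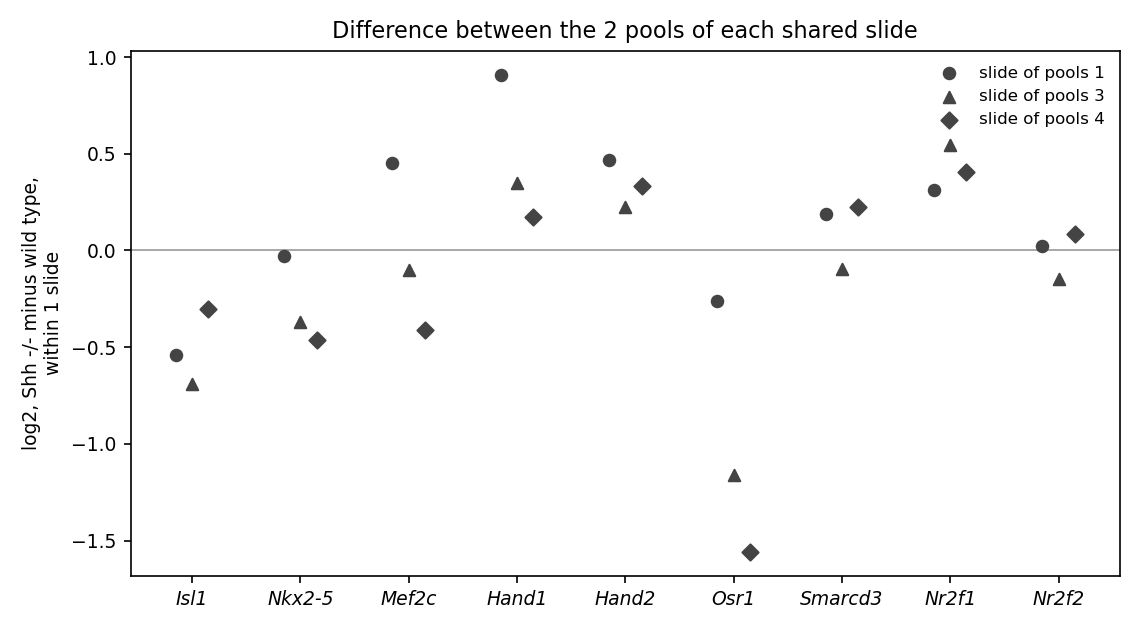
Difference in log2 signal between the *Shh* -/- and the wild-type pool on each of the 3 slides they shared, for the brightest probe of 9 genes, with a marker for each slide. *Osr1*, *Isl1* and *Nkx2-5* are below 0 on the 3 slides, and *Hand1*, *Hand2* and *Nr2f1* above 0.

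Taken by slide, 3 of the 9 genes were lower in the mutant pool of all 3 shared slides (*Osr1*, *Isl1* and *Nkx2-5*). This pattern was found at 11.4% of all probes. Another 3 were higher on all 3 slides (*Hand1*, *Hand2* and *Nr2f1*), as were 16.1% of all probes. The remaining 3 had slides of either sign. The slide of pools 1 gave the smallest *Osr1* difference and the largest *Hand1* difference of the 3.

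Stability between pools differed widely among the progenitor factors. The residual SD of the fit was 0.11 for *Nr2f2*, 0.16 for *Smarcd3* and 0.16 for *Isl1*, below or near the median of 0.19 over all tested probes. It was 0.27 for *Hand2* and between 0.37 and 0.39 for *Mef2c*, *Hand1*, *Nkx2-5* and *Osr1*, and 0.89 for *Nr2f1*. The share of tested probes steadier than the gene was 13.9% for *Nr2f2*, 90.0% for *Osr1* and 99.6% for *Nr2f1*. The *Osr1* difference was thus the largest in size and one of the least even between pools.

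All 9 listed paralogues of these factors were tested, *Isl2*, *Nkx2-3*, *Nkx2-6*, *Mef2a*, *Mef2b*, *Mef2d*, *Smarcd1*, *Smarcd2* and *Nr2f6*, with 4 negative and 5 positive changes, a median of 0.04 and none called. *Nkx2-3*, a homeobox gene of gut mesoderm, was at 0.74 (95% interval −0.05 to 1.53) and *Nkx2-6*, a homeobox gene of pharyngeal endoderm and the venous pole, at −0.46 (95% interval −0.87 to −0.04), with limma's adjusted p of 0.699 and 0.529.

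Of 36 other heart field genes 34 were tested, 20 with negative and 14 with positive changes and a median of −0.05. *Foxf2*, a forkhead factor of the mesenchyme next to the gut, was the sole one called. It fell from 12.63, 11.91 and 12.09 in wild-type pools 1, 3 and 4 to 9.92, 9.77, 9.59 and 9.84 in mutant pools 1 to 4, by −2.43 (standard error 0.18, adjusted p = 0.00215 in limma). *Fgf8*, a growth factor of the pharyngeal region, was at −1.60 (adjusted p = 0.0889), and *Eya1*, a transcriptional coactivator of pharyngeal mesoderm, at −1.04 (adjusted p = 0.0650). The Hedgehog targets *Gli1*, *Ptch1* and *Hhip* and *Shh* itself had negative changes in 4 of 4 genes, with a median of −1.12. *Hhip*, a Hedgehog inhibitor, was the one called (−2.82, adjusted p = 0.00125), while *Ptch1*, the receptor, was at −1.16 and *Gli1* at −1.02. On the same arrays, then, these 4 genes had changes larger in size than the brightest probe of any progenitor factor.

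**Figure D4:**
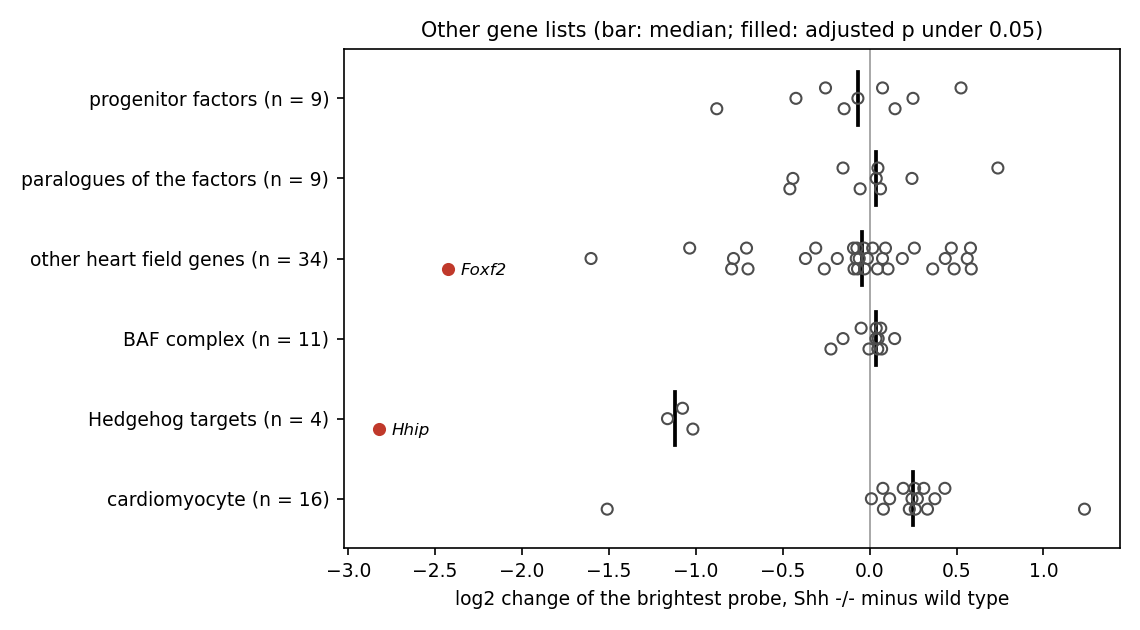
Log2 change of the brightest probe of each tested gene, *Shh* -/- minus wild type, for the progenitor factors and 5 other lists, with a bar at the median and filled points for genes with an adjusted p under 0.05. *Foxf2* and *Hhip* are the filled points, and none is among the progenitor factors.

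Markers of other cells that the dissection could hold were read beside these values. Liver bud markers were called higher for 4 of 9 genes (*Ttr*, *Fga*, *Fgb* and *Alb*, median 0.84, summed signal 144605 to 196293 in the mutants and 132296 to 144542 in wild type). Called lower were *Pax1* and *Pax9* of 7 sclerotome genes, *Pax9* being well above background in 1 of 4 mutant pools (3 of the 7 genes entered the test through the wild-type pools alone), *Zic1* of 7 tested neural tube genes and *Dlx2* of 8 neural crest genes. The summed sclerotome signal was 1152 to 1688 in the mutants and 2245 to 5022 in wild type. That of the neural tube was 12464 to 16484 in the mutants and 17505 to 17903 in wild type. Most of it came from *Nes* (0.05), followed by *Nkx6-1* (−0.85, limma's adjusted p = 0.0684). For the neural crest the sum was 5802 to 7374 in the mutants and 7377 to 8507 in wild type. None was called among 7 endothelial and 7 erythroid genes tested, with medians of 0.05 and −0.40, or among 3 myotome genes, of which 2 (*Myf6* and *Myog*) entered the test through the wild-type pools alone. *Myf5* and *Myod1*, which define the myotome, were well above background on no array. Their part in the values of the progenitor factors was not tested.

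The authors' own normalized values were read as a further check. Their array medians ran from 5.50 to 9.93, so the median change over all probes was −0.54 there and fold changes carry that shift. With each array set to 1 median, an alternative chosen after seeing the data, *Osr1* was at −0.92, *Isl1* at −0.39, *Hand1* at 0.50 and *Hand2* at 0.22. Limma called 0 probes in either form of these values, with 33 and 1040 probes at an unadjusted p under 0.05. The plot of changes under every setting shows that *Osr1*, *Isl1* and *Nkx2-5* stayed below 0. The sign of *Mef2c*, *Nr2f1*, *Nr2f2* and *Smarcd3* did not hold throughout, and *Hand1* (−0.11) and *Hand2* (−0.39) were negative in the authors' values as deposited, shift included.

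**Figure D5:**
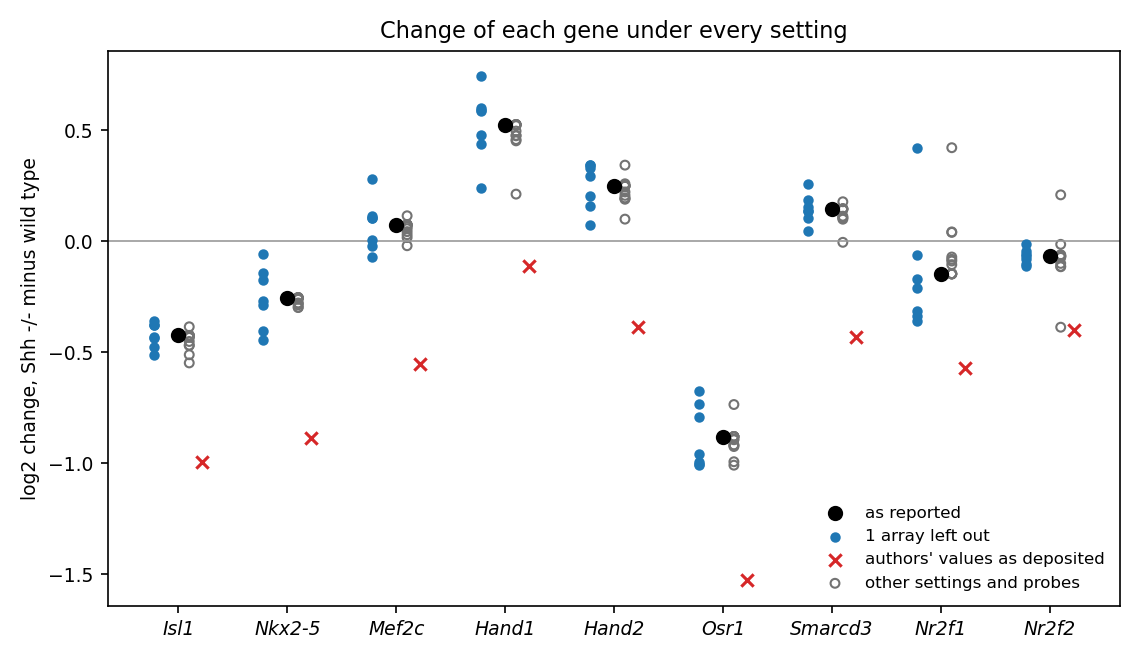
Log2 change, *Shh* -/- minus wild type, of 9 genes as reported (black), with 1 array left out (blue), in the authors' values as deposited (crosses, shifted by a median of −0.54) and under the other settings and probes (open circles). *Osr1* runs from −1.53 to −0.67 and *Isl1* from −0.99 to −0.36.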

How the data were processed

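Spot and local background signals are deposited as intensity, read by Agilent Feature Extraction 10.5.1.1 per the labels, and a separate file holds the authors' normalized log2 values. Here, mean signals of 43379 spots per array were corrected by normexp (153 negative control spots, offset 50), outlier spots were left out, and spots of a probe were averaged. VSN (own implementation, trimming share 0.9, 7 iterations, 5 strata) then gave log2 values. Differences are mutant minus wild type, from limma 3.58.1 (R 4.3.3, with version 1.17.8 of data.table), with Benjamini-Hochberg adjustment over all 23129 probes with a gene name that all arrays of 1 genotype or the other read well above background. The study's own test, SAM, was an alternative, over all 35 label assignments. Tests were tried on simulated data. Figures used matplotlib 3.10.9 (Python 3.11.15).

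The progenitor factors and all gene lists were chosen with earlier results of these data known. All probes of the factors are named. Of the other lists, genes called are named (at most 10), with the 2 largest changes not called, and the 5 genes most like *Osr1*. Further genes were named after their values were seen. In the labels, the entry for strain holds the genotype and the reverse.

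The labels' number marks a shared slide, per the slide entry of each label. Deviations from the genotype means correlated at 0.192, 0.239 and 0.033 between arrays of a slide, and at −0.22 to 0.187 between slides. Alternatives for the values were quantile normalization, scaling to the 75th percentile, uncorrected background, outlier spots retained and the authors' deposited log2 values. Those for the test were all named probes, a filter on the interquartile range, SAM, array weights, slide as a fixed or random block (consensus correlation 0.102), a variance trend, a gene's other probes, and leaving out each array. The authors' comparisons, ChIP-seq and qPCR were not analysed here.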

Additional observations from a re-analysis of the deposited data

Results flagged for a closer look

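*Nr2f1* at probe A_52_P275700 was flagged because 1 of its 4 mutant pools, pool 2, lay far from the others. The gap to its nearest neighbour was 0.945 of the range of the mutant pools, above the 95% critical value for 4 samples. It was the sole flag among the 13 probes examined, and chance flags about 1 group in 20.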

How the results depend on the processing

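*Osr1*, *Isl1* and *Nkx2-5* were below 0 and *Hand1* minus *Hand2* above 0 under every alternative run, though leaving out 1 array gave −0.44 to −0.058 for *Nkx2-5*, 0.13 to 0.44 for *Hand1* minus *Hand2* and 0.074 to 0.34 for *Hand2*. *Osr1* ran from −1.53 to −0.67 and was never called (adjusted p 0.106 to 0.945). Array weights called 1 gene, *Isl1* (−0.55, adjusted p = 0.0387, range over its alternatives 0.0387 to 1.00), and turned *Smarcd3* (−0.0048) and *Nr2f1* (0.042). The authors' values, with their shift, turned *Mef2c* (−0.55), *Hand1* (−0.11), *Hand2* (−0.39) and *Smarcd3* (−0.43) and left 0 genes without overlap. Set to 1 median per array, chosen after seeing the data, they turned *Nr2f1* (0.040) and *Nr2f2* (0.21) and left 1. *Nr2f1* minus *Nr2f2* turned with 75th percentile scaling (0.018), quantile normalization (0.042) and no background correction (0.0096). With the replicate block (slide fixed) *Mef2c* was −0.020, *Nr2f1* 0.42 and *Nr2f1* minus *Nr2f2* 0.44. These equal the values without mutant pool 2, which had no slide partner, so the 2 settings are not separate checks of the size. No call of a progenitor factor changed with either slide model. Leaving out 1 array at a time gave −0.071 to 0.28 for *Mef2c*, −0.36 to 0.42 for *Nr2f1*, −0.29 to 0.44 for *Nr2f1* minus *Nr2f2*, and 2 to 4 genes without overlap. There were 3 without mutant pool 2 (12.1% of all probes) and 4 without wild-type pool 3 (12.2%). The cause was not tested.

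Over all probes, 127 were called as reported, 0 in the authors' values in either form (33 and 1040 at an unadjusted p under 0.05), 33 without the filter on dim probes, 263 by SAM, 555 with array weights, 11 with slide fixed and 183 with slide random, and 12 to 136 with 1 array left out. The interquartile range filter removed *Smarcd3* and *Nr2f2*, so these have no value there. *Osr2* and the second *Mef2c* probe were too dim for any statement. For the other probes, the number of arrays limits the precision.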
